A study of Mus musculus with 2 samples.

Results

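The genes described here encode the proteins of the cytosolic ribosome and their paralogues, and they were taken by name from 2 gene tables of cultured mouse Nestin+ stromal cells. A row was a member if its name was Rpl or Rps followed directly by a number, or Rplp0, Rplp1, Rplp2 or Rpsa. Names with -ps, the S6 kinase genes (Rps6k) and Rps19bp1 were left out. The rule found 91 of 49585 rows. Of these, 77 are the standard genes of the family and 14 are paralogues or numbered copies: Rpl3l, Rpl6l, Rpl7l1, Rpl10l, Rpl22l1, Rpl36al, Rpl37rt, Rpl39l, Rps3a2, Rps3a3, Rps4l, Rps12l1, Rps27l and Rps27rt. The first tissue was heart and the second bone marrow, both from C57BL/6 mice 7 days old that carry a Nestin-GFP transgene, and both cultures were at passage 10. The heart culture medium held 20 ng/ml EGF, 20 ng/ml bFGF and 4 ng/ml CT-1 (cardiotrophin-1), while bone marrow cells had another growth medium, so tissue and medium cannot be told apart. Each tissue gave 1 library, and no difference given here has a replicate check or a p-value.

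The cytosolic ribosome is built of a large subunit, whose proteins carry the prefix Rpl, and a small subunit, whose proteins carry Rps, around ribosomal RNA. Most mammalian ribosomal proteins come from 1 active gene, accompanied by many intronless pseudogenes copied from its messenger. A few have a second active gene, and some of these paralogues are known for tissue-restricted expression: Rpl3l in heart and skeletal muscle, Rpl10l and Rpl39l in the testis. Messengers of this family typically begin with a run of pyrimidines, the terminal oligopyrimidine or TOP motif, through which mTORC1 signalling controls their translation.

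The values are RPKM, which divides reads by model length and by library size, so levels are compared per length. Read totals recovered from them were 64872683 for heart and 53999963 for bone marrow. Mesenchymal markers fitted the label in part: Col1a1, Col1a2, Pdgfra, Pdgfrb, Cd44 and Nes were at or above 1 RPKM in both libraries, whereas Eng and Thy1 reached it in heart only. Nes, the gene that names these cells, stood at 8.74 RPKM in heart, against 1.20 in bone marrow, where it was only just above 1 RPKM. Of 7 cardiac and skeletal muscle markers and 6 male germ cell markers, 0 reached 1 RPKM in either library, with summed levels of 0.781 RPKM in heart, against 0.871 in bone marrow for muscle and of 0.0545 in heart, against 0.107 in bone marrow for germ cells. Of 4 blood markers, 3 were at or above 1 RPKM in each library, with sums of 8.85 RPKM in heart, against 4.88 in bone marrow, and the defining marker Ptprc was at 0 in heart and at 0.00469 in bone marrow. The 3 endothelial markers summed to 0.0829 RPKM in heart, against 1.14 in bone marrow, nearly all of it in bone marrow from Vwf. The part of these marker differences in the results was not tested.

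Almost the whole family stood within 2-fold between the tissues, and the 3 members past 2-fold were all paralogues. Rpl22l1 was higher in heart, and Rpl39l and Rpl36al were higher in bone marrow. In bulk RNA, fewer cells that express a gene and less RNA per cell cannot be told apart. A gene counted as 2-fold apart when the log2 ratio of heart over bone marrow, computed on RPKM + 1, reached 1 in either direction and the library with more of it held 5 RPKM or more. Over all 7659 symbols at that level, 7.56% passed toward heart and 9.51% toward bone marrow. The split was 579 toward heart against 728 toward bone marrow, and scaled by the median ratio it was 704 against 583. Of the 81 members at that level, 1 was higher in heart and 2 were higher in bone marrow. None of the 75 standard members at that level was 2-fold apart. The other 10 members lay below 5 RPKM in both libraries: 8 paralogues and the standard genes Rpl29 and Rps12.

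**Figure D1:**
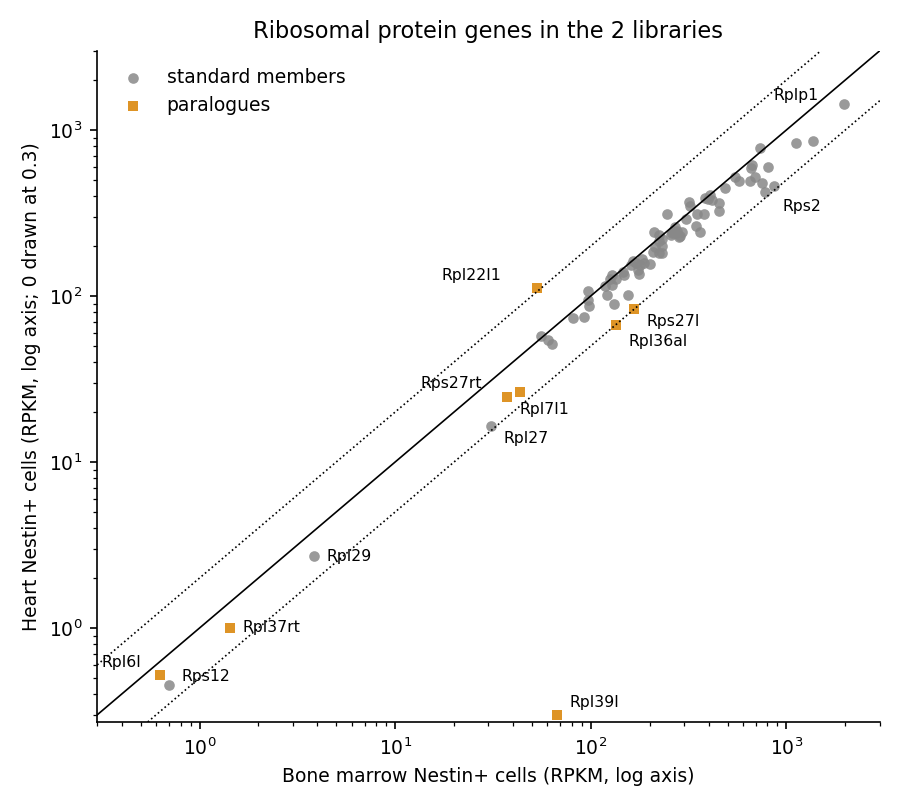
Level of each member in heart (vertical) and bone marrow (horizontal) Nestin+ cells, in RPKM on log axes, 1 point per gene and 1 library per tissue; members under 0.3 RPKM in both are not drawn. The solid line marks equal levels and the dotted lines 2-fold; standard members (circles) lie along the solid line, Rpl39l lies at the floor with 0 RPKM in heart, and Rpl22l1 is the one point above the upper dotted line.

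The standard genes were a little lower in heart, by about as much as genes in general. Their median log2 ratio was -0.16 over the 76 that reached 1 RPKM in a library, with quartiles of -0.33 and -0.07. The median over all 11355 symbols at that level was -0.11, with quartiles of -0.47 and 0.28, and over the 6049 symbols at or above 5 RPKM in both libraries it was -0.14. Of the 76, 65 were below 0 and 11 above. Scaling by the median ratio brings the median of the standard members to -0.01, close to 0. The other scalings gave -0.075 by the upper quartile, -0.090 by a trimmed mean and -0.086 by the summed RPKM of non-members. The median thus stayed below 0 under each of these scalings, but its size rests on the scaling. The ratios of the members lay close together. Of the 75 at or above 5 RPKM, 57 (76.0%) were within 0.25 log2 units of their own median, beside 217 of 521 (41.7%) around theirs for genes outside the family at 50 RPKM or more in both. Such closeness was not particular to the family. Quartiles were 0.26 log2 units apart for standard members and 0.12 apart for the 14 mTORC1 and S6 kinase genes. They were 0.37, 0.43 and 0.45 apart for mitochondrial ribosomal proteins, translation factors and other TOP messengers, and ribosome biogenesis genes. The 46 standard genes of the large subunit had a median of -0.17 and the 30 of the small subunit at or above 1 RPKM a median of -0.14.

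The members nevertheless differed widely in level. Among standard members the median was 231 RPKM in heart, against 238 in bone marrow. By the mean of both libraries, the highest was Rplp1, which encodes an acidic protein of the stalk that engages elongation factors, at 1438 RPKM in heart, against 1967 in bone marrow. Rps26, a small-subunit protein near the messenger exit, stood at 854 RPKM in heart, against 1375 in bone marrow. Rplp0, which anchors the stalk, followed with 830 RPKM in heart, against 1124 in bone marrow, then Rps3a1, a small-subunit protein, with 781 in heart, against 734 in bone marrow and Rpl8 with 597 in heart, against 809 in bone marrow. Across the 75 members at or above 5 RPKM, log2 levels in the libraries had a Pearson r of 0.975 and a Spearman rho of 0.979, a description over genes that share both libraries. Part of the range in level goes with the gene model: over the 63 members with a matching model, log2 length and log2 mean level had an r of -0.65. Besides Rps12, Rpl29 and Rpl27, the lowest by the mean of both libraries were Rps15a and Rps19, and Rps19 had 54.6 RPKM in heart, against 60.1 in bone marrow. Rps15a, with 57.7 RPKM in heart, against 55.8 in bone marrow, has a model of 6270 bases around a coding sequence of 393, and Rplp1 has one of 499 bases. RPKM therefore gives no molar ratio between subunits of the same particle.

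Some standard genes did stand away from the rest. Rps2, a small-subunit protein at the decoding region, stood at 461 RPKM in heart, against 864 in bone marrow, a log2 ratio of -0.91 and the lowest of the standard members. From 54694 reads in heart, against 85413 in bone marrow, its ratio of heart to bone marrow had a 95% counting interval of 0.527 to 0.539. The interval does not cover reads shared with other genes. Of the 50-base windows of the Rps2 coding sequence, 84.2% occur in transcripts of 71 other genes, and its row overlaps that of Snhg9. Rpl41, the smallest protein of the ribosome, stood at 422 RPKM in heart, against 780 in bone marrow (log2 ratio -0.89). All 29 such windows of Rpl41 occur in other genes too. Rpl27 had 16.4 RPKM in heart, against 31.0 in bone marrow, but most of the RPKM of its sequence was listed for a copy, described later. Rps26 and Rps15, a protein of the small-subunit head, had log2 ratios of -0.69 and -0.65. Toward the other end, Rps6, the small-subunit protein phosphorylated by S6 kinases, stood at 368 RPKM in heart, against 316 in bone marrow (log2 ratio 0.22). Rpl3, which lies by the peptidyl transferase centre, had 242 RPKM in heart, against 211 in bone marrow (0.20), and Rpl11 and Rpl23, both known also as partners of Mdm2, had 0.14 and 0.11. These intervals and differences cover counting error in 2 libraries, and the spread between cultures is unknown.

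**Figure D2:**
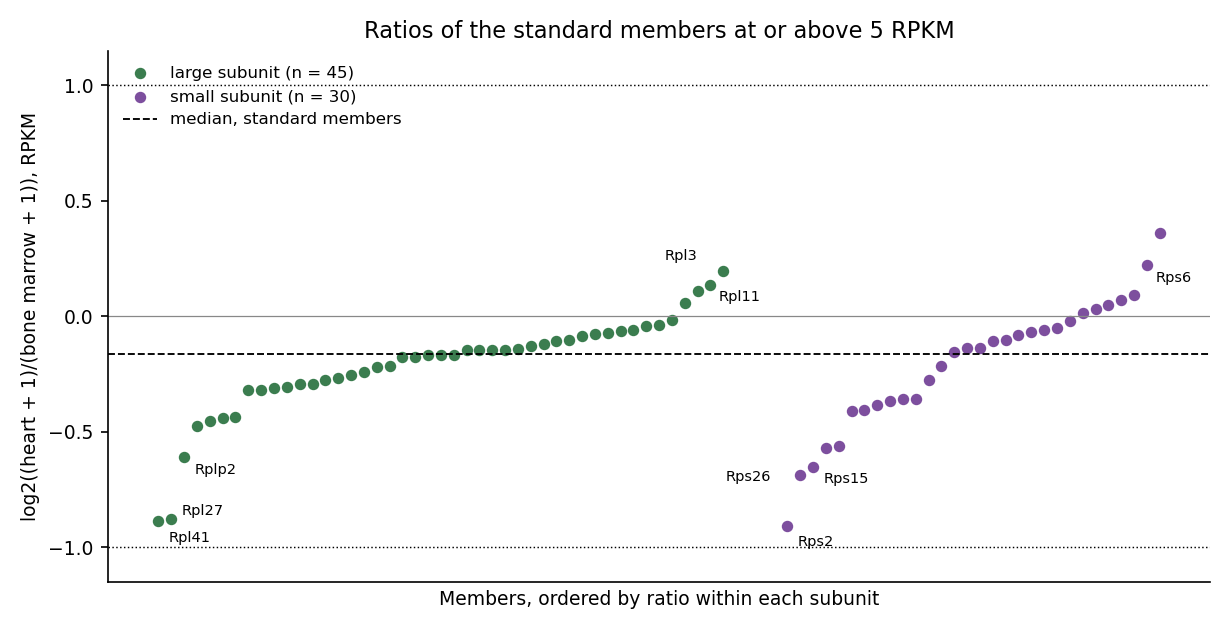
Log2 ratio of heart over bone marrow (RPKM + 1) for the 75 standard members with 5 RPKM or more in a library, ordered within the large and small subunit; the dashed line is the median of -0.16 and the dotted lines mark 2-fold. Most points lie within 0.25 of the dashed line, with Rps2, Rpl41 and Rpl27 at the low end and Rps6 and Rpl3 toward the high end.

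The stalk genes and Rpsa were all lower in heart. Rplp0, Rplp1 and Rplp2 had log2 ratios of -0.44, -0.45 and -0.61, with Rplp2 at 101 RPKM in heart, against 154 in bone marrow. Rpsa, a small-subunit protein also known as a laminin receptor precursor, stood at 244 RPKM in heart, against 363 in bone marrow, a log2 ratio of -0.57. All 4 lay below the first quartile of the standard members and none was 2-fold apart. The 4 X-linked standard genes lay near equality, with log2 ratios of -0.02 for Rps4x, -0.04 for Rpl10, -0.08 for Rpl39 and -0.15 for Rpl36a. Rps4x and Rpl10 were above 0 under each of 4 other scalings, and Rpl39 and Rpl36a under at least 1 of them, so no direction is given for these 4. Together the 91 members held 8.24% of the summed RPKM in heart, against 9.37% in bone marrow. By recovered reads, the 69 members with whole reads held 2.44% in heart, against 2.89% in bone marrow. The difference in RPKM share was -1.13 percentage points, and -0.63 without mitochondrial rows and the 20 most abundant symbols.

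Among the paralogues, Rpl39l showed the largest difference. Rpl39l is a near relative of Rpl39, a very small large-subunit protein that lines the exit tunnel of the nascent chain, and in mice it is known from male germ cells. It stood at 0 RPKM in heart, against 66.9 in bone marrow, from 0 reads in heart, against 3002 in bone marrow. With heart set to a floor of 3 reads, it was 1202-fold lower there. From the 0 reads themselves, the lower 95% counting limit of the fold toward bone marrow was 977. Rpl39 itself stood at 153 RPKM in heart, against 161 in bone marrow, from 14218 reads in heart and 12502 from bone marrow, a log2 ratio of -0.08. Rpl39l thus made up 0% of the summed RPKM of the pair in heart, against 29.3% in bone marrow. The germ cell markers named above, Ddx4, Dazl, Prm1, Prm2, Tnp1 and Acrv1, were each below 0.1 RPKM in both libraries.

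The 2 coding sequences are shown because a value of 0 beside an abundant relative depends on whether reads of the pair can be told apart. Both come from GENCODE M21 transcripts on GRCm38, 5′ to 3′, with the bases at which they differ in capitals. Rpl39l lies at chr16:10170226-10174911 on the plus strand and Rpl39 at chrX:37082520-37085402 on the minus strand.
Rpl39l: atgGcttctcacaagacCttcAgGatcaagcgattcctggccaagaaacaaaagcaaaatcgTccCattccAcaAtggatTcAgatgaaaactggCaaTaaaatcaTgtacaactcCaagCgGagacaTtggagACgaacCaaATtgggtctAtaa
Rpl39: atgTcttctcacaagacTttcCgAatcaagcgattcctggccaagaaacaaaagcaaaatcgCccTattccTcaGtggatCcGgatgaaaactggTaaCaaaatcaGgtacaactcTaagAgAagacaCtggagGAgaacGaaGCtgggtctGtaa
The sequences have 156 bases each and differ at 23, which makes them 85.3% identical. Of the differences, 16 fall on the third base of a codon, and the longest unbroken match is 38 bases. None of the 107 windows of 50 bases in the Rpl39l coding sequence occurs in a transcript of another gene, whereas 84.1% of those of Rpl39 do. No gene row overlaps Rpl39l, and of the 3 rows within 100 kb of it none reached 1 RPKM in either library. By nearness of the log2 ratio over these 2 libraries, the 5 symbols most like Rpl39l were Bmp4, Ly6a, Actg2, Omd and Fmod, at -6.03, -6.16, -5.97, -5.83 and -5.75, beside -6.09 for Rpl39l. With 0 RPKM in heart, the value of Rpl39l depends on the pseudocount: it was -9.39 with 0.1 RPKM and -3.85 with 5 RPKM. This nearness therefore holds for a pseudocount of 1 RPKM only. Ly6a and Actg2 were above 0 in heart, at 2.23 and 1.53 RPKM.

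Rps27l lay at the threshold. Rps27l is a paralogue of the zinc-finger protein Rps27 and is known in human cells as a p53 target. It stood at 83.0 RPKM in heart, against 166 in bone marrow, from 4394 reads in heart and 7317 from bone marrow, a ratio with a 95% counting interval of 0.481 to 0.519. Its log2 ratio was -0.99 on RPKM + 1, just short of the threshold, and -1.0004 from the reads with no pseudocount, just past it. Rps27 stood at 233 RPKM in heart, against 222 in bone marrow (0.07), so Rps27l made up 26.2% of the pair in heart, against 42.7% in bone marrow. The coding sequences of Rps27l (chr9:66946086-66949516, plus strand) and Rps27 (chr3:90212522-90213651, minus strand) are given in the same way, differing bases in capitals.
Rps27l: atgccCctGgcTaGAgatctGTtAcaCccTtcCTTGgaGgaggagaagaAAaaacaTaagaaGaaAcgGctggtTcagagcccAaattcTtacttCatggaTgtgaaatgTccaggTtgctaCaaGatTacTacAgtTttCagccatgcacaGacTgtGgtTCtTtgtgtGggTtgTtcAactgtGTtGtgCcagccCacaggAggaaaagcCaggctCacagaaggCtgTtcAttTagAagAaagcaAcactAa
Rps27: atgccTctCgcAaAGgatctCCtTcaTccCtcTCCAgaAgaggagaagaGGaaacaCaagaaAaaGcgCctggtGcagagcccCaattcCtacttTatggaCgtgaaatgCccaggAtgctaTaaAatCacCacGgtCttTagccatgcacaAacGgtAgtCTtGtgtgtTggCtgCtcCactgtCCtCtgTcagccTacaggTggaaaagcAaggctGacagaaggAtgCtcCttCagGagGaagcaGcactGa
They differ at 61 of 255 bases, 53 of them on the third base of a codon, and their longest unbroken match is 11 bases. The pair share no window of 50 bases, but 49.0% of the windows of Rps27l occur in transcripts of 4 other genes. The counting interval of Rps27l does not cover reads shared with those. Rps27rt has the same coding sequence as Rps27, base for base. Its row stood at 26.5 RPKM in heart, against 43.7 in bone marrow, a log2 ratio of -0.70, but reads within that sequence cannot be told apart from those of Rps27, and both values are uncertain.

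Rpl36al and Rpl22l1 went opposite ways. Rpl36al, a close and widely expressed relative of the X-linked Rpl36a, stood at 66.9 RPKM in heart, against 135 in bone marrow, from 5869 reads in heart and 9889 from bone marrow, a ratio with a 95% counting interval of 0.478 to 0.510. Its log2 ratio of -1.01 is only just past the threshold, and under each of 4 other scalings and a pseudocount of 5 RPKM it lay between -0.97 and -0.86. Rpl36a stood at 116 RPKM in heart, against 128 in bone marrow. Rpl36al made up 36.6% of the pair in heart, against 51.4% in bone marrow. The coding sequences of the pair differ at 39 of 321 bases and share no window of 50 bases, but each such window of Rpl36al also occurs in a transcript of another gene. Of 13 rows within 100 kb of Rpl36al, 7 were at or above 1 RPKM. Its closest, Mgat2, a glycosyltransferase gene 74 bases away on the other strand, had a log2 ratio of -0.34 and Rps29 one of -0.38. The replication gene Pole2 had -1.53, Lrr1 -1.37, Dnaaf2 -0.86, Klhdc1 -0.65 and 9330151L19Rik 0.26. The symbols nearest to Rpl36al in log2 ratio were Actn4, Ier5, Pdlim5, Ddx24 and Rin1, all between -1.009 and -1.004.

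Rpl22l1, a paralogue of the RNA-binding protein Rpl22, was the only member 2-fold higher in heart. It stood at 112 RPKM in heart, against 53.3 in bone marrow, a log2 ratio of 1.05, or 1.00 with a pseudocount of 5 RPKM. Rpl22 stood at 51.7 RPKM in heart, against 63.6 in bone marrow, a log2 ratio of -0.29. In mouse cells the Rpl22 protein is known to lower Rpl22l1 messenger. Rpl22l1 made up 68.4% of the pair's summed RPKM in heart, against 45.6% in bone marrow. Its RPKM was thus the higher of the pair in heart and the lower in bone marrow. RPKM depends on model length, so this share, like those of the other pairs, does not rank the genes by number of messengers. The values of Rpl22l1 did not come out as whole reads, so no counting interval is given. The pair share no window of 50 bases with each other, but 84.4% of the windows of Rpl22l1 occur in transcripts of 4 other genes. Eif5a2, the only row within 100 kb at or above 1 RPKM, stood at 4.56 RPKM in heart, against 4.83 in bone marrow. The symbols nearest to it in log2 ratio were Usp12, Bace1, Adamts2, Pacs1 and Spred1, all at 1.05.

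**Figure D3:**
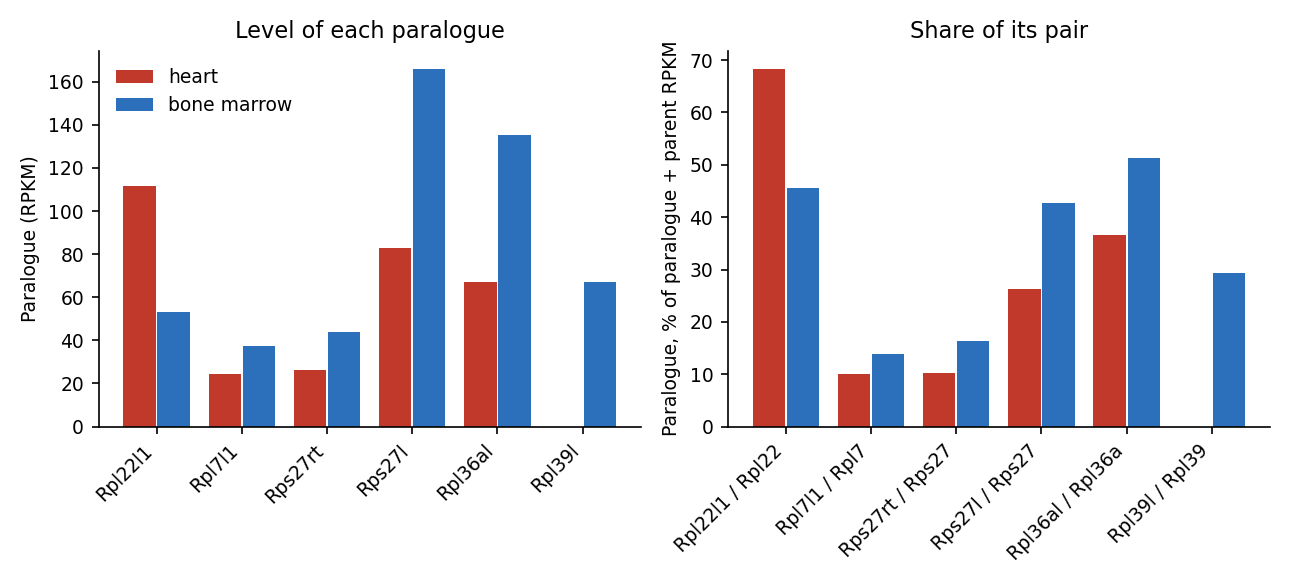
The 6 paralogues at or above 5 RPKM, heart (red) left of bone marrow (blue), 1 library each: RPKM of the paralogue (left panel) and the paralogue as a percentage of the summed RPKM of paralogue and parent (right panel). Rpl22l1 holds 68.4% of its pair in heart, against 45.6% in bone marrow, while the other 5 hold a smaller share in heart, with Rpl39l at 0%.

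Of the remaining paralogues, Rpl7l1 alone was above 2 RPKM. Rpl7l1, a relative of Rpl7, stood at 24.5 RPKM in heart, against 37.4 in bone marrow, a log2 ratio of -0.59, beside -0.06 for Rpl7. Rpl37rt stood at 1.00 RPKM in heart, against 1.43 in bone marrow, and 81.2% of the coding 50-base windows of Rpl37 occur in it. Rpl6l stood at 0.521 RPKM in heart, against 0.626 in bone marrow and shares 60.3% of the windows of Rpl6. Rpl3l, the striated muscle form of Rpl3, had 1 read in each library, in heart as in bone marrow, and its coding sequence shares no 50-base window with another gene. Rpl10l, known in mice for standing in for Rpl10 in male germ cells, had 0 reads in heart, against 1 in bone marrow. Rps3a2, Rps3a3, Rps4l and Rps12l1 were listed at 0 in both libraries. All 350 windows of Rps12l1 and 76.7% of those of Rps3a2 occur in their parents Rps12 and Rps3a1, so a 0 for these does not show that they gave no RNA. Their parents Rps3a1 and Rps4x were abundant, with Rps4x at 404 RPKM in heart, against 409 in bone marrow, as were Rpl6 at 246 in heart, against 277 in bone marrow and Rpl37 at 239 in heart, against 270 in bone marrow.

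For 3 standard genes, a copy with -ps in its name was listed far above the parent. Rps12, a small-subunit protein gene on chromosome 10, stood at 0.453 RPKM in heart, against 0.700 in bone marrow. Rps12-ps3, a copy on chromosome 19 (59322290 to 59322783) with the same coding sequence over all 399 bases and annotated as protein-coding in GENCODE M21, stood at 1027 RPKM in heart, against 1912 in bone marrow, from 32911 reads in heart and 51006 from bone marrow. The copy thus held 99.96% of the pair's RPKM in each library. Rpl27-ps3 stood at 481 RPKM in heart, against 557 in bone marrow, 96.7% of its pair in heart, against 94.7% in bone marrow. Rpl10-ps3 stood at 665 RPKM in heart, against 604 in bone marrow, 85.3% of its pair in heart, against 83.6% in bone marrow, and its coding sequence equals that of Rpl10 over 645 bases. For Rpl27 and Rpl10, as for Rps12, every 50-base window of the parent's coding sequence occurs in the copy, and the files cannot say which of the 2 was transcribed. Summed over parent and copy, the log2 ratio was -0.90 for Rps12, -0.24 for Rpl27 and 0.11 for Rpl10. With its copy counted, Rps12 would rank between Rps2 and Rpl41 among the lowest standard genes. Of all 276 rows of the family with -ps in their name, 260 were at 0 in both libraries and these 3 alone reached 5 RPKM.

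**Figure D4:**
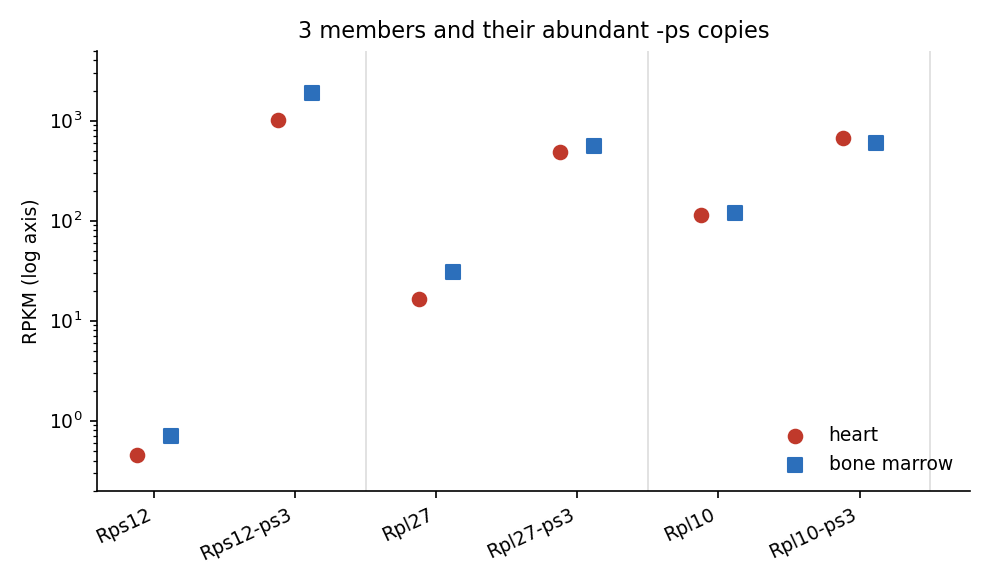
RPKM (log axis) of Rps12, Rpl27 and Rpl10 and of the -ps copy of each, heart (red circles) left of bone marrow (blue squares), 1 library each. The copy stands above its parent in both libraries, with Rps12-ps3 at 1027 RPKM in heart against 0.453 for Rps12.

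Such sharing is the rule in this family. Over the coding sequences of the 77 standard genes, a median of 92.4% of 50-base windows also occurred in a transcript of another gene. In 27 genes all windows did, and in 67 more than 50% did. The 10 standard members with at most 50% shared had a median log2 ratio of -0.18, beside -0.16 for all. The sources used here do not give the read length or the handling of reads with several matches, so a window of 50 bases is a yardstick only. Rpl29, a large-subunit protein, was the other low standard gene, at 2.70 RPKM in heart, against 3.83 in bone marrow, and 90.3% of its windows occur elsewhere. Apart from shared sequence, 18 members overlap another row at or above 1 RPKM, and since the use of strand is not given, their reads cannot be told apart there.

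The start sites were searched for pyrimidine runs. RefSeq start sites on GRCm38.p6 were found for 57 of the 77 standard members. The search was for an unbroken run of at least 8 pyrimidines (C or T), read in the direction of the messenger. It covered 15 bases before to 15 after the start, and a symbol with several start sites counted by its longest run. Such a run was present in 25 of these 57 (43.9%). It was present in 13.9% of all 27025 symbols with a start site and in 15.3% of 5944 at or above 5 RPKM. Among paralogues it was present in 2 of 9, Rpl22l1 and Rps27l. The windows of 4 paralogues and their parents are given because these pairs differed most, 15 bases before to 15 after the start, 5′ to 3′, with the longest pyrimidine run in capitals.
Rpl39l (chr16:10170213-10170242, plus strand): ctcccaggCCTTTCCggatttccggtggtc
Rpl39 (chrX:37085208-37085237, minus strand): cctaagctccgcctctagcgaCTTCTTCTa
Rpl22l1 (chr3:28805493-28805522, plus strand): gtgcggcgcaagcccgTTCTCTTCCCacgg
Rpl22 (chr4:152325711-152325740, plus strand): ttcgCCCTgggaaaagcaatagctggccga
Rps27l (chr9:66946071-66946100, plus strand): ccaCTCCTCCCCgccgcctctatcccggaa
Rps27 (chr3:90213634-90213663, minus strand): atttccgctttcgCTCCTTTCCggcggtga
Rpl36al (chr12:69184053-69184082, minus strand): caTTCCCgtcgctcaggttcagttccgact
Rpl36a (chrX:134585639-134585668, plus strand): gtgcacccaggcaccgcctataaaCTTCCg
Rpl39l and Rpl36al, both lower in heart, have runs of 7 and 5, and Rps27l, also toward bone marrow, has one of 9. The runs of Rpl39l, Rpl36al, Rps27l and Rpl22 lie wholly before the annotated start, so a messenger from that start would not hold them. That of Rps27 spans the start, and those of Rpl22l1, Rpl39 and Rpl36a lie after it. Rpl22l1, higher in heart, has the longest of the 8, with 10 bases, and Rpl22 the shortest with 4. A run is a description of these letters and no measure of translation. The RefSeq start lies 72 bases from the start of the gene row for Rpl22l1 and 180 for Rpl39, and at most 16 bases from it for the other 6, so which start these cells use is not known from the files.

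Genes that make and regulate the ribosome were read as lists beside the family. The 33 ribosome biogenesis genes had the lowest median log2 ratio, -0.70, with all 33 below 0. Of these, 31 reached 5 RPKM in a library, which a call needs. Of the 33, 0 passed the 2-fold threshold toward heart, 9 passed it toward bone marrow and 24 passed neither way. Over all symbols at or above 5 RPKM in a library, the shares were 7.56% toward heart and 9.51% toward bone marrow. Scaled by the median ratio, 5 of the 9 biogenesis genes passed the threshold. Ltv1, a small-subunit assembly factor, stood at 9.57 RPKM in heart, against 26.9 in bone marrow, and Tcof1, the nucleolar protein treacle, at 5.21 in heart, against 13.8 in bone marrow. Nearest to equality were Ubtf, the RNA polymerase I factor UBF, and Rrs1, at -0.18 and -0.36. The standard ribosomal proteins at -0.16 thus lay closer to the all-gene median than the genes that assemble the particle. The largest shift that another scaling gave was 0.15 log2 units.

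The other lists had medians between -0.35 and -0.15. Fau and Rack1, ribosomal proteins outside the name rule, had log2 ratios of -0.32 and -0.19, within the range of the standard members. The 19 translation factors and other TOP messengers had a median of -0.35. Of these, 0 were 2-fold apart in either direction, beside 7.56% toward heart and 9.51% toward bone marrow over all symbols at or above 5 RPKM. Tpt1, the translationally controlled tumour protein, had the highest log2 ratio, 0.21, with 805 RPKM in heart, against 694 in bone marrow, followed by the initiation factor gene Eif3f with 0.12. The lowest ratios were those of Eif3e, another subunit of initiation factor 3, with 104 RPKM in heart, against 169 in bone marrow (-0.70) and the histone chaperone gene Nap1l1 with -0.64. The 78 mitochondrial ribosomal protein genes, 67 of them at or above 5 RPKM in a library, had a median of -0.34. Past 2-fold were 0 toward heart and 2 toward bone marrow (76 neither way), beside 7.56% and 9.51% of all symbols at that level. These 2 were Mrpl54, at 19.7 RPKM in heart, against 47.0 in bone marrow, and Mrpl42, at 25.6 in heart, against 53.2 in bone marrow, of which Mrpl54 alone was past 2-fold under each of 4 other scalings. Mrps6 and Mrpl39 were the highest, at 0.62 and 0.21. The 14 mTORC1 and S6 kinase genes, 11 of them at or above 5 RPKM in a library, had a median of -0.15. Beside the same 7.56% and 9.51% of all symbols, 0 of the 14 were 2-fold apart. Their lowest were Eif4ebp1, a repressor of cap-dependent initiation, at -0.56 and Larp1, which binds TOP messengers, at -0.49, and their highest at or above 5 RPKM were Tsc1 and Tsc2, which restrain mTORC1, at 0.04 and 0.03.

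**Figure D5:**
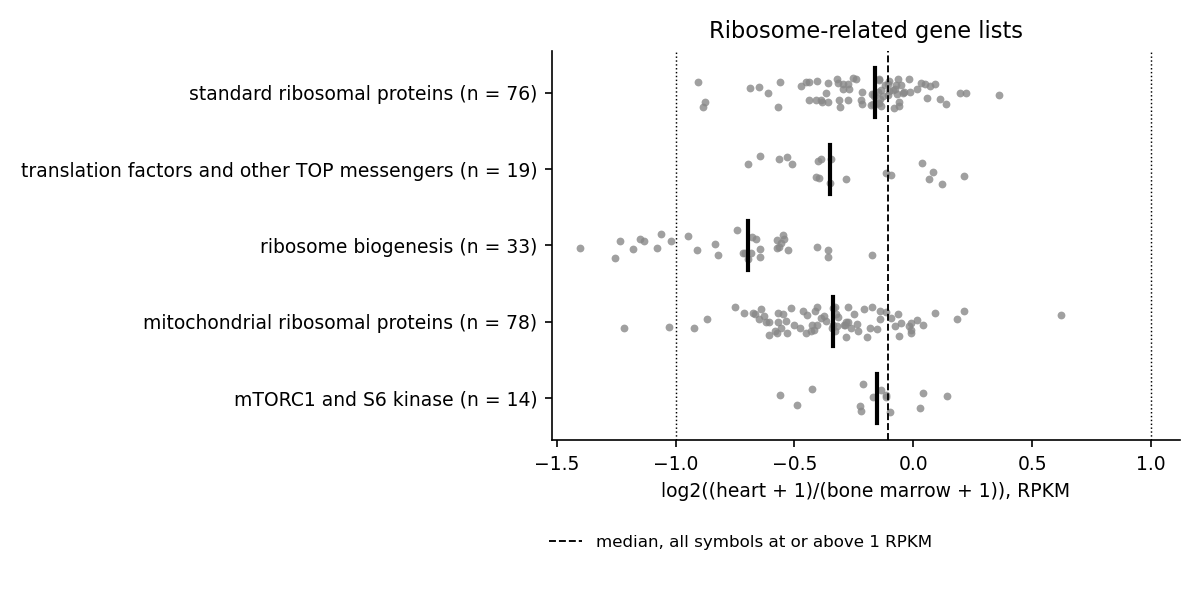
Log2 ratio of heart over bone marrow (RPKM + 1) for each gene at or above 1 RPKM in the standard ribosomal proteins and 4 related lists; points are genes, spread vertically for legibility, thick bars are list medians, the dashed line is the all-symbol median of -0.11 and the dotted lines mark 2-fold. The ribosome biogenesis list lies lowest, with a median of -0.70, and the standard ribosomal proteins at -0.16.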

How the data were processed

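Total RNA (1 ug) from each culture gave 1 Illumina library per tissue, per the labels' protocols. The authors deposited RPKM per gene, per the file headers, with no log transform or scaling between libraries recorded. Build mm8 is named by the submitters' processing notes, but 45149 of 49585 rows (91.1%) have the coordinates of a GENCODE M21 gene on GRCm38, and coordinates are read on that build. Aligner, counter and strand use: not given in the sources used here.

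Read totals were recovered from RPKM and the exon-union lengths of matching models. Of 14255 rows above 0 in both libraries, 12292 (86.2%) came out whole within 0.02 reads, as did 69 of the 91 members. For these, 95% intervals of ratios are exact conditional (Clopper-Pearson) intervals. No molecular identifiers are stated, so reads may not be independent molecules, and intervals and the floor of 3 reads cover counting error only. No count model was fitted.

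The main value is log2((heart + 1)/(bone marrow + 1)) on RPKM, which understates changes of low genes. A symbol with several rows was represented by its highest row (49492 symbols). With 1 library per tissue there is no test and no standard error. The members, lists and named genes were chosen with earlier results of these data known. Genes named singly are all paralogues with their parents, the 5 highest and lowest standard members by ratio and by level, the stalk genes and Rpsa, and the 2 highest and lowest of each list at or above 5 RPKM. Rows within 100 kb of a paralogue past 2-fold and the 5 symbols nearest it in ratio are named too. Some genes that the rule names are not reported here. The 3 -ps copies were named after their values were seen. Shared windows of 50 bases were searched on both strands of all GENCODE M21 transcripts, from 1 coding sequence per gene. Alternatives were other pseudocounts, floors, thresholds and scalings, summed rows, and, chosen after seeing the data, adding copies to parents, leaving out members with over 50% shared windows and scaling 2 of the related lists. The software was scipy 1.17.1, pandas 2.3.3, matplotlib 3.10.9 and numpy 2.4.6 under Python 3.11.15, and the calculation was tested on simulated data.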

Additional observations from a re-analysis of the deposited data

How the results depend on the processing

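Rpl22l1 was the 1 member higher in heart and Rpl39l and Rpl36al the 2 higher in bone marrow under a pseudocount of 0.1, floors of 1, 20 or 0 RPKM, summed rows and copies added to parents. The floors could not remove these genes, each above 20 RPKM in a library. Summed rows and added copies left their values unchanged. Rpl36al dropped out, leaving 1 in bone marrow, with a pseudocount of 5 and under each of 4 scalings, which add between 0.07 and 0.15 to the log2 ratio of abundant genes. At a 4-fold threshold 0 were higher in heart and 1, Rpl39l, in bone marrow, and the same counts of 0 and 1 were left without members with over 50% shared windows, an alternative that removes Rpl22l1 and Rpl36al by construction. Over all symbols the split of calls moved with the median scaling, to 704 higher in heart and 583 in bone marrow, where the values as reported were 579 in heart and 728 in bone marrow. The median of the standard members was -0.16 with a pseudocount of 5 and at 5 RPKM in both libraries, -0.17 with all 77 kept and with copies added, and -0.18 without members with over 50% shared windows. It was -0.013 scaled by the median ratio, -0.075 by the upper quartile, -0.090 by a trimmed mean and -0.086 by the summed RPKM of non-members. The share of the members, heart minus bone marrow, was -1.13 percentage points, and it was -1.44 without mitochondrial rows, -0.63 without these and the 20 most abundant symbols, 4 of which are members, -0.44 on recovered reads of 69 members and -1.40 with copies added. Of the ribosome biogenesis genes, 5 in place of 9 were past 2-fold toward bone marrow under the median ratio scaling and 7 or 8 under the other 3, and of the mitochondrial ribosomal proteins 1 in place of 2 under each of the 4, alternatives chosen after seeing the data. For paralogues and their parents not at 0 in both libraries, 81 recomputed log2 ratios stayed within the allowance for counting error and 86 moved beyond it. Part of the 81 could not have moved. Summing rows changed none of these genes, and scaling cannot change a gene at 0 in heart (Rpl39l and Rpl10l). The split is therefore no measure of stability. The allowance was 0 where reads were not whole and for Rpl39l and Rpl10l, with 0 reads in heart, so a move there is no measure against counting error. Scaling cannot move Rpl39l, which is at 0 in heart, but its log2 ratio was -9.39 with a pseudocount of 0.1 and -3.85 with 5. No paired analysis was possible because each tissue has 1 library. Depth does not limit the abundant members, but values near 1 read, such as those of Rpl3l and Rpl10l, carry no comparison.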
